A study of Mus musculus with 13 samples.

Results

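The 45 genes described here encode ribosome biogenesis and nucleolar factors, the proteins that transcribe, modify, cut and fold ribosomal RNA and assemble it with ribosomal proteins. They were chosen by name as a functional class, with earlier results of these data known, and all 45 were among the 11989 genes measured. RNA sequencing was done on natural killer (NK) cells from the spleens of wild-type C57BL/6 mice. The 5 groups held 13 libraries: 3 of cells cultured in HD IL-15 for 72 h and stimulated with anti-NK1.1, 2 of HD IL-15 cells left unstimulated, 2 of cells cultured in LD IL-15 for 72 h and stimulated, 3 of naive cells stimulated, and 3 of naive cells left unstimulated. Stimulation lasted 6 h, HD and LD are not spelled out in the labels, and no unstimulated LD group was analysed here. IL-15 is a cytokine that sustains NK cells, and anti-NK1.1 is an antibody to an activating NK cell receptor. All groups shared the strain and genotype. Nothing says that the libraries came from separate animals, so the p-values measure only the spread between these libraries, which may be technical.

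Ribosomes are built in the nucleolus, where RNA polymerase I makes a long precursor RNA. Box C/D and box H/ACA ribonucleoproteins (snoRNPs), guided by small nucleolar RNAs, methylate and pseudouridylate that precursor, while large assemblies fold and cut it into the RNAs of the small (40S) and large (60S) subunits. Lymphocytes at rest are small cells with small nucleoli, and they enlarge and build ribosomes when activated. The transcription factor MYC is a known activator of many of these genes, through the E-box sequence CACGTG.

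The deposited values were log2 of quantile-normalized counts plus 1, and levels are given here as CPM, the share of a library's total scaled to a fixed sum, computed from them. CPM is not corrected for transcript length, so levels are compared between libraries and not between genes. Each comparison was tested with limma, and a gene was called at a Benjamini-Hochberg adjusted p under 0.05 over 11543 tested genes, which include all 45 members. Changes are log2 fold changes with their standard error (SE). Read numbers were not at hand and were inferred from the rank of each library's distinct values, which can be too low. By that inference, genes without a read (at the library's lowest value) numbered 155 to 809 over the libraries. The inferred reads of the median gene ranged from 112 to 463. All 14 NK cell markers were present, with sums of 6070 to 8280 CPM in stimulated HD, 14360 to 15430 in unstimulated HD, 5979 to 7122 in stimulated LD, 8092 to 9573 in stimulated naive and 17880 to 20740 CPM in unstimulated naive cells. The 17 myeloid markers measured summed to 172.2 to 177.0, 241.5 to 300.4, 418.5 to 527.1, 1087 to 1179 and 1337 to 1429 CPM in the same order of groups. The 5 B cell markers measured summed to at most 0.99 CPM in HD cells and to 8.87 to 15.5 CPM in unstimulated naive cells. *Cd79a* and *Ms4a1* were at the library's lowest value in all HD libraries. The 10 erythroid and platelet markers measured summed to 865 to 2172 CPM in stimulated naive cells, against 525 to 851 CPM unstimulated, and to 628 to 714 CPM in stimulated HD cells, against 569.5 to 779.5 CPM unstimulated. Of these *Hba-a1*, *Hbb-bs* and *Hbb-bt* were at the library's lowest value in all HD libraries. The sums of unstimulated HD and naive cells overlapped, but the single markers differed. In HD against naive cells 9 of the 10 were called lower and 0 higher, both unstimulated (17.3% of tested genes lower) and stimulated (22.4%). The 8 basophil and mast cell markers measured summed to 49.1 to 64.1 CPM in stimulated naive cells, against 120.4 to 188 CPM unstimulated, and to 10.2 to 23.1 CPM in stimulated HD cells, against 12.1 to 16.1 CPM unstimulated. The 5 T cell markers measured summed to 38.1 to 42.2 CPM in stimulated naive cells, against 61.8 to 71.4 CPM unstimulated, and to 35.4 to 42.7 CPM in stimulated HD cells, against 38.5 to 44.7 CPM unstimulated. In stimulated LD cells the B cell markers summed to 0.57 to 1.67 CPM and the erythroid and platelet markers to 794 to 810 CPM. There the basophil and mast cell markers summed to 71.6 to 72.4 CPM and the T cell markers to 24.8 to 29.6 CPM. In stimulated HD against LD cells, 7 of the 8 basophil and mast cell markers were called lower and 0 higher (5.33% of tested genes lower). Against stimulated naive cells these counts were also 7 and 0, and 11 and 0 for the 17 myeloid markers. The part of other cell types in the results below was not tested, and in bulk RNA fewer cells of a type and less RNA per cell cannot be told apart. By the column headers, the 6 naive libraries and LD replicate 3 were in library pool 2, and the 5 HD libraries and LD replicate 1 in pool 1. Each response to anti-NK1.1 thus lies within 1 pool, whereas HD and naive cells lie in different pools, and a pool term rests on the 2 LD libraries alone.

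Summed over the 45 genes, the level was 12030, 14070 and 16550 CPM in stimulated HD cells, against 6455 and 5485 CPM in unstimulated HD cells. It was 13710 and 9962 CPM in stimulated LD cells. In naive cells it was 6577, 6382 and 5120 CPM with anti-NK1.1, against 4407, 3828 and 4425 CPM without. In HD cells and in naive cells, all stimulated libraries were above the unstimulated ones, and stimulated naive libraries overlapped unstimulated HD libraries. The group mean was highest in stimulated HD cells for 37 of the 45 genes and in stimulated LD cells for the other 8, and it was lowest in unstimulated naive cells for 35. The order stimulated HD, stimulated LD, stimulated naive, unstimulated HD, unstimulated naive held for 19 genes. Neighbours in that order were not all apart: no gene was called different between stimulated HD and stimulated LD cells.

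**Figure D1:**
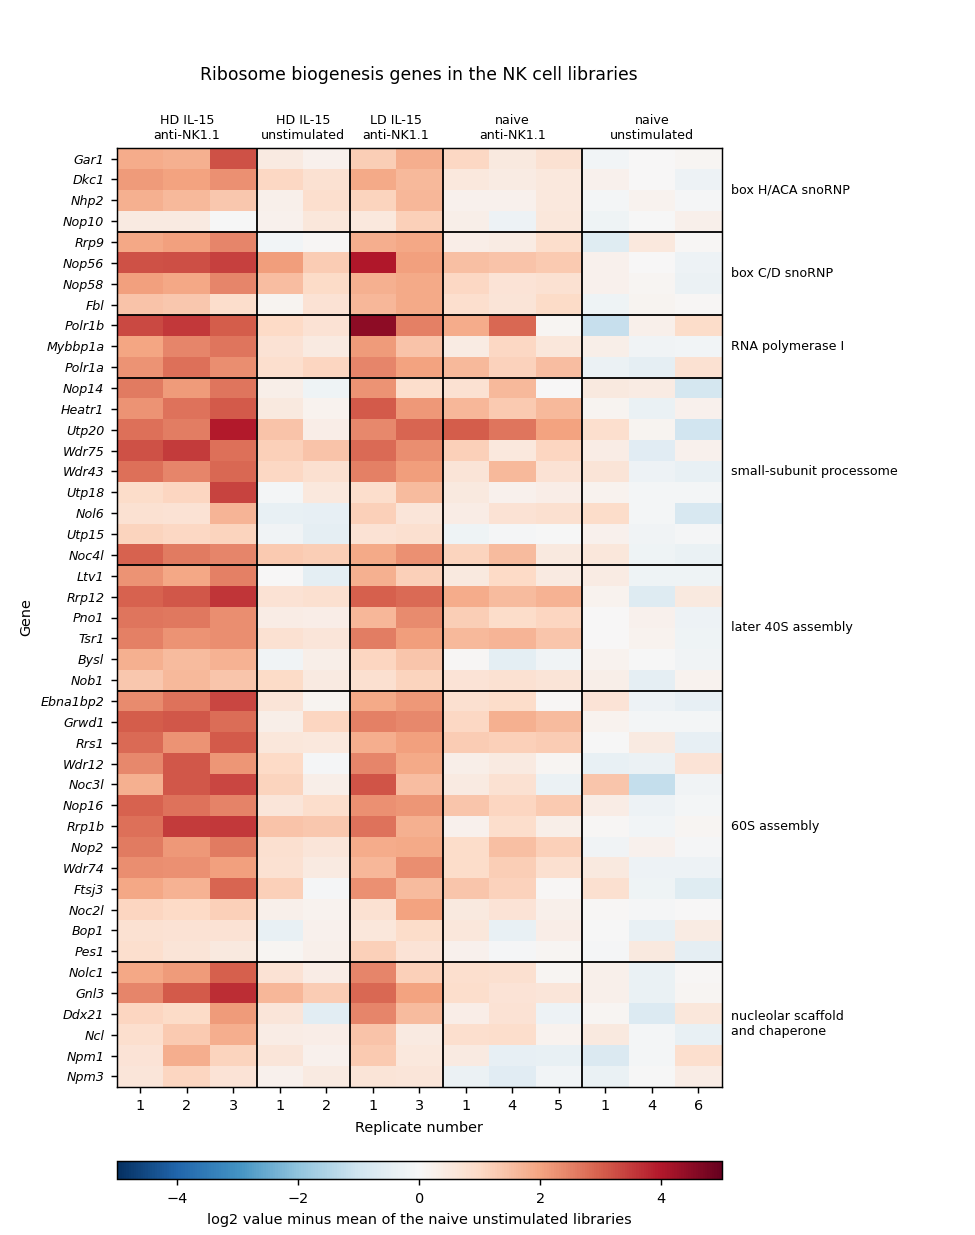
Levels of the 45 genes in the 13 libraries, as log2 value minus the gene's mean over unstimulated naive libraries (colour; red above, blue below), with genes in rows by role and libraries in columns. Most rows are red in the stimulated HD and LD columns, and *Nop10*, *Npm3* and *Pes1* are paler.

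The promoters of these genes are shown because the E-box is a sequence feature that the choice of genes did not use. RefSeq promoters (build GRCm38.p6, 250 bases before to 50 after the start) were at hand for 39 of the 45. CACGTG, which reads the same on both strands, was in 10 of the 39 (25.6%), against 1087 of 9246 tested genes with a promoter (11.8%). A match is a description of letters and not a bound site. The 10 matches are printed with up to 10 flanking bases on each side, 5′ to 3′ on the gene's strand, with the E-box in capitals.
Nop2: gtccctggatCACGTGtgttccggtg
Grwd1: gccggagtcgCACGTGtgaaaccgga
Ltv1: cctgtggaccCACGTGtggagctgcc
Utp20: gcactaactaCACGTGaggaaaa
Pes1: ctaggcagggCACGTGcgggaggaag
Pno1: tacaaccacgCACGTGttcctct
Mybbp1a: cttctgagccCACGTGtttg
Tsr1: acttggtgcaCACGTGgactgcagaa
Utp18: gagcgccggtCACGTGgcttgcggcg
Wdr43: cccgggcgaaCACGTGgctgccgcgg
The first base of the E-box was 60 bases before the start in *Nop2* and 20 before it in *Utp18*, and at positions 3 to 41 after the start in the other 8. Among genes with a promoter, *Polr1b* had the next to largest HD response and *Npm3* the next to smallest, and neither window held an E-box. Promoters of the largest and the smallest HD response are given in full: *Ltv1* (chr10:13193088-13193387, minus strand), with an E-box at position 29 after the start, and *Nop10* (chr2:112261676-112261975, plus strand), with none in the window.
Ltv1: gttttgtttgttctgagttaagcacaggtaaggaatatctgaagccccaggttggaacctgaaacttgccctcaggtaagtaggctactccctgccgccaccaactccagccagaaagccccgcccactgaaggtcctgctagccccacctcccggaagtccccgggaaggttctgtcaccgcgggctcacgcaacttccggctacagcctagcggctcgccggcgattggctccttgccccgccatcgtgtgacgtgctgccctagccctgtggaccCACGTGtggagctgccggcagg
Nop10: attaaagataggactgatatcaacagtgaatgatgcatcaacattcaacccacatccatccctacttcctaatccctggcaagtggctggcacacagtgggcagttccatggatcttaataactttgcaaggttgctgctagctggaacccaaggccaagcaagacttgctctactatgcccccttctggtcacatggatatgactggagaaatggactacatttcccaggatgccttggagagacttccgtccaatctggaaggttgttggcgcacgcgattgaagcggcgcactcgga
With anti-NK1.1 in HD cells, the median change was 1.78 for the 10 genes with the E-box and 1.62 for the 29 without. In naive cells the medians were 1.03 and 0.64, with 6 of 10 and 9 of 29 genes called higher. The order of the medians was the other way for stimulated HD over naive cells (1.45 with the E-box and 1.51 without), stimulated LD over naive cells (0.86 and 1.06) and the difference of the responses (0.79 and 0.83). These differences between the promoter classes were not tested.

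Anti-NK1.1 was followed by higher levels of most of the 45 genes in HD cells and of 18 in naive cells, and none was called lower in either (17.2% of tested genes were in HD cells and 14.7% in naive cells). In HD cells 40 of 45 were called higher, where 15.9% of all tested genes were, with a median change of 1.65 and a range from -0.11 (*Nop10*) to 2.46 (*Ltv1*). The stimulated HD libraries lay wholly above the unstimulated ones for 44 genes, where 28.6% of tested genes did. In naive cells 18 of 45 were called higher, where 14.5% of tested genes were, with a median of 0.69 and a range from -0.33 (*Npm3*) to 2.57 (*Utp20*). Stimulated naive libraries lay wholly above the unstimulated ones for 26 genes, where 20.3% did. All 18 genes called in naive cells were also called in HD cells, 22 were called in HD cells alone, and 5 in neither (*Ncl*, *Nop10*, *Npm1*, *Npm3* and *Pes1*). A call in one and not the other is no test of a difference, which is given further on. When 1 library at a time was left out, the HD count was 29 to 37 and 26 of the 40 calls held throughout, and the naive count was 15 to 23 with 13 of 18 held. The HD calls lost in at least 1 such fit were those of *Bop1*, *Ddx21*, *Fbl*, *Ftsj3*, *Nhp2*, *Nob1*, *Noc2l*, *Noc3l*, *Nol6*, *Nop56*, *Nop58*, *Polr1b*, *Utp18* and *Utp20*. The naive calls lost were those of *Nob1*, *Noc4l*, *Nop58*, *Wdr43* and *Wdr75*.

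**Figure D2:**
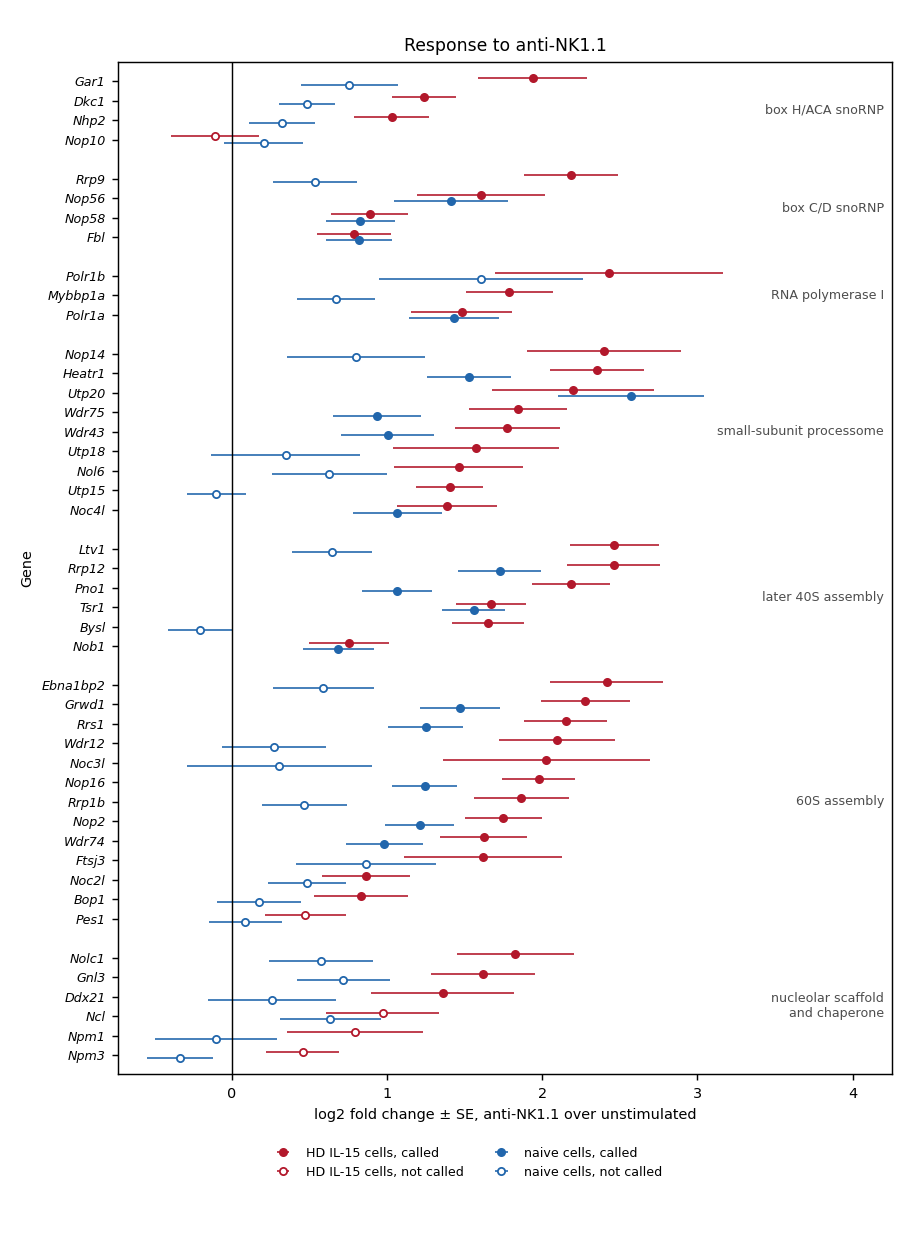
Log2 fold change with anti-NK1.1 for each gene in HD cells and in naive cells, by role, with bars of 1 SE and filled points for called genes. HD changes lie to the right of naive changes for most genes, and *Nop58*, *Fbl* and *Polr1a* have nearly the same change in both.

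The RNA polymerase I group held the subunit genes *Polr1a* and *Polr1b*, and *Mybbp1a*, which is not a subunit gene. All 3 were called in HD cells and 1 in naive cells (15.9% and 14.5% of tested genes were called higher). *Polr1a* encodes the largest subunit of the enzyme. *Polr1a* was at 116, 164 and 122 CPM in stimulated HD cells, against 43.6 and 51.6 CPM in unstimulated HD cells. In naive cells it was at 76.3, 54.2 and 70.7 CPM in stimulated naive cells, against 19.8, 17.7 and 42.1 CPM in unstimulated naive cells. Both pairs of groups were apart, with changes of 1.48 ± 0.33 (adjusted p = 0.00297) and 1.43 ± 0.29 (adjusted p = 0.0022). *Polr1b*, the catalytic partner subunit, had few reads: 11, 20 and 37 in unstimulated naive libraries, as inferred from the ranks of the values. *Polr1b* was at 20.1, 23.6 and 16.7 CPM in stimulated HD cells, against 4.01 and 3.29 CPM in unstimulated HD cells, a change of 2.43 ± 0.73 (adjusted p = 0.0199). That call was lost without HD stimulated replicate 2 or either unstimulated HD replicate, and stimulated naive libraries spread widely, from 2.11 to 14.9 CPM. *Mybbp1a*, a nucleolar protein that binds the MYB transcription factor, rose by 1.79 ± 0.28 in HD cells (adjusted p = 0.000247), against 0.67 ± 0.25 in naive cells (adjusted p = 0.0566).

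The box C/D group holds the methyltransferase fibrillarin (*Fbl*), the scaffold proteins *Nop56* and *Nop58*, and *Rrp9*, which binds the U3 RNA. All 4 were called in HD cells and 3 of 4 in naive cells (15.9% and 14.5% of tested genes were called higher). *Nop56* was at 228, 234 and 263 CPM in stimulated HD cells, against 105 and 59.8 CPM in unstimulated HD cells. It was at 69.8, 67.5 and 61.1 CPM in stimulated naive cells, against 28.8, 25.03 and 21.03 CPM in unstimulated naive cells. None of these pairs of groups overlapped, and the changes were 1.60 ± 0.41 in HD cells (adjusted p = 0.00803) and 1.41 ± 0.37 in naive cells (adjusted p = 0.0103). Without unstimulated HD replicate 2, the *Nop56* change in HD cells was 1.20 and no longer called (adjusted p = 0.115). *Nop58* rose by 0.89 ± 0.25 in HD cells and 0.83 ± 0.22 in naive cells, and *Fbl* by 0.79 ± 0.24 in HD and 0.82 ± 0.21 in naive cells. The HD call of *Nop58* also needed unstimulated HD replicate 2 (adjusted p = 0.181 without it). *Rrp9* was at 44.1, 47.4 and 61.2 CPM in stimulated HD cells, against 10.3 and 11.7 CPM in unstimulated HD cells. In naive cells the 2 groups overlapped, with 14.4, 15.1 and 20.7 CPM in stimulated naive cells, against 7.52, 16.5 and 11.8 CPM in unstimulated naive cells. *Rrp9* rose by 2.19 ± 0.30 in HD cells (adjusted p = 8.92e-05), with 0.54 ± 0.27 in naive cells (adjusted p = 0.157).

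The box H/ACA group holds the pseudouridine synthase *Dkc1* and its partners *Nhp2*, *Nop10* and *Gar1*. In HD cells 3 of 4 were called and in naive cells none (15.9% and 14.5% of tested genes were called higher). At an unadjusted limma p under 0.05, 2 of 4 were higher in naive cells, where 19.9% of tested genes were. *Dkc1* was at 646, 596 and 731 CPM in stimulated HD cells, against 308 and 251 CPM in unstimulated HD cells, a change of 1.24 ± 0.20 (adjusted p = 0.000355). In naive cells it was at 217, 199 and 213 CPM in stimulated naive cells, against 175, 152 and 127 CPM in unstimulated naive cells, with a change of 0.48 ± 0.18 (adjusted p = 0.0594). *Gar1* rose by 1.94 ± 0.35 in HD cells (adjusted p = 0.000741), with 124, 118 and 317 CPM, against 46.8 and 40.4 CPM unstimulated, and HD replicate 3 was highest. *Nhp2* rose by 1.03 ± 0.24 (adjusted p = 0.00436), a call that was lost without unstimulated HD replicate 1. *Nop10* stood apart from its partners. *Nop10* was at 284, 282 and 204 CPM in stimulated HD cells, against 243 and 308 CPM in unstimulated HD cells. In naive cells it was at 254, 174 and 309.7 CPM in stimulated naive cells, against 177, 206 and 244 CPM in unstimulated naive cells. The groups overlapped in both, and the changes were -0.11 ± 0.28 in HD cells (adjusted p = 0.81; 95% interval -0.72 to 0.50) and 0.21 ± 0.25 in naive cells (adjusted p = 0.582).

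The small-subunit processome is the first large particle on the precursor RNA. Of its 9 members here, 9 were called in HD cells and 5 in naive cells (15.9% and 14.5% of tested genes were called higher). *Utp20*, a large HEAT-repeat scaffold, had the largest naive change. It was at 75.5, 59.02 and 36.5 CPM in stimulated naive cells, against 16.3, 10.1 and 4.60 CPM in unstimulated naive cells, a change of 2.57 ± 0.47 (adjusted p = 0.00104). *Utp20* was at 61.4, 53.5 and 142 CPM in stimulated HD cells, against 24.8 and 11.4 CPM in unstimulated HD cells, a change of 2.20 ± 0.52 (adjusted p = 0.00515). The groups were apart in both HD and naive cells, and HD replicate 3 was the highest of all libraries. Without unstimulated HD replicate 2 the HD call was lost (adjusted p = 0.0895). *Heatr1*, another HEAT-repeat subunit, rose by 2.35 ± 0.30 in HD cells (adjusted p = 4.82e-05) and 1.53 ± 0.27 in naive cells (adjusted p = 0.000851). The WD-repeat subunits *Wdr43* and *Wdr75* rose by 1.78 ± 0.34 and 1.84 ± 0.32 in HD cells, and by 1.005 ± 0.30 and 0.94 ± 0.28 in naive cells. *Noc4l*, which in yeast pairs with *Nop14*, rose by 1.39 ± 0.32 in HD and 1.07 ± 0.29 in naive cells. *Wdr75* was at 173, 217 and 129 CPM in stimulated HD cells, against 43.2 and 51.2 CPM unstimulated, and at 44.2, 27.5 and 40.4 CPM in stimulated naive cells, against 24.6, 12.8 and 22.1 CPM in unstimulated naive cells, so that the groups were apart in both. *Utp15*, a WD-repeat subunit, rose by 1.40 ± 0.21 in HD cells, with 39.6, 37.9 and 40.5 CPM, against 16.2 and 13.5 CPM unstimulated. In naive cells *Utp15* was at 15.96, 17.8 and 17.98 CPM in stimulated naive cells, against 21.6, 16.2 and 17.9 CPM in unstimulated naive cells, overlapping groups with a change of -0.10 ± 0.19 (adjusted p = 0.744). *Nop14* rose by 2.40 ± 0.50, *Nol6* by 1.46 ± 0.42 and *Utp18* by 1.57 ± 0.54 in HD cells. *Utp18* was at 29.6, 33.4 and 164 CPM in stimulated HD cells, against 14.8 and 22.6 CPM unstimulated, and the call was lost without stimulated HD replicate 3, where the change was 0.78 (adjusted p = 0.0656), without unstimulated HD replicate 1 (1.26, adjusted p = 0.21) and without unstimulated HD replicate 2 (1.88, adjusted p = 0.0725).

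Of the later 40S factors, all 6 were called in HD cells and 4 in naive cells (15.9% and 14.5% of tested genes were called higher). *Ltv1*, a factor of pre-40S particles and their export, had the largest HD change. *Ltv1* was at 134, 108 and 159 CPM in stimulated HD cells, against 28.4 and 19.96 CPM in unstimulated HD cells. The change was 2.46 ± 0.29 (adjusted p = 2.2e-05), and every stimulated library was far above both unstimulated ones. In naive cells it was at 39.5, 55.3 and 38.2 CPM in stimulated naive cells, against 37.4, 24.2 and 23.9 CPM in unstimulated naive cells, a smaller gap with a change of 0.65 ± 0.26 (adjusted p = 0.0749). *Rrp12* was at 65.1, 71.5 and 98.4 CPM in stimulated HD cells, against 13.6 and 14.3 CPM in unstimulated HD cells. *Rrp12*, an export factor, was at 30.3, 25.1 and 27.5 CPM in stimulated naive cells, against 9.29, 5.26 and 11.5 CPM in unstimulated naive cells. It rose in both, by 2.46 ± 0.30 (adjusted p = 2.89e-05) and 1.73 ± 0.27 (adjusted p = 0.000278). *Pno1*, an RNA-binding partner of the endonuclease *Nob1*, rose by 2.19 ± 0.25 in HD and 1.06 ± 0.22 in naive cells. *Pno1* was at 77.1, 76.97 and 60.4 CPM in stimulated HD cells, against 15.7 and 15.4 CPM in unstimulated HD cells. It was at 28.8, 22.8 and 25.4 CPM in stimulated naive cells, against 12.5, 14.1 and 10.3 CPM in unstimulated naive cells, with stimulated libraries above unstimulated ones in both. *Tsr1*, a GTPase-like assembly factor, rose by 1.67 ± 0.22 in HD and 1.56 ± 0.20 in naive cells. Of the exonic bases of *Tsr1*, 32.3% lie opposite exons of *Srr*, which was not called in either response. The *Srr* change was -0.96 in HD cells (limma adjusted p = 0.0956) and 0.09 in naive cells (adjusted p = 0.885). *Nob1*, which makes the final cut of the 18S RNA, rose by 0.76 ± 0.26 in HD and 0.69 ± 0.23 in naive cells, and both of its calls were lost in some fits that left out 1 library. *Bysl* was at 88.4, 77.5 and 85.8 CPM in stimulated HD cells, against 22.7 and 31.3 CPM in unstimulated HD cells. *Bysl*, an early-binding 40S factor, was at 26.7, 18.4 and 22.5 CPM in stimulated naive cells, against 29.1, 25.3 and 22.96 CPM in unstimulated naive cells. It rose by 1.65 ± 0.23 in HD cells (adjusted p = 0.0001), while the naive groups overlapped, with -0.20 ± 0.21 (adjusted p = 0.499). Of the exonic bases of *Bysl*, 9.4% lie opposite *Ccnd3*. The *Ccnd3* change was -2.66 in HD cells (limma adjusted p = 3.73e-06) and -1.57 in naive cells (adjusted p = 0.000172). The difference of its responses was -1.09 (adjusted p = 0.0446). The library protocol kept strand, per the labels, and whether counting used it is not given in the sources used here.

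**Figure D3:**
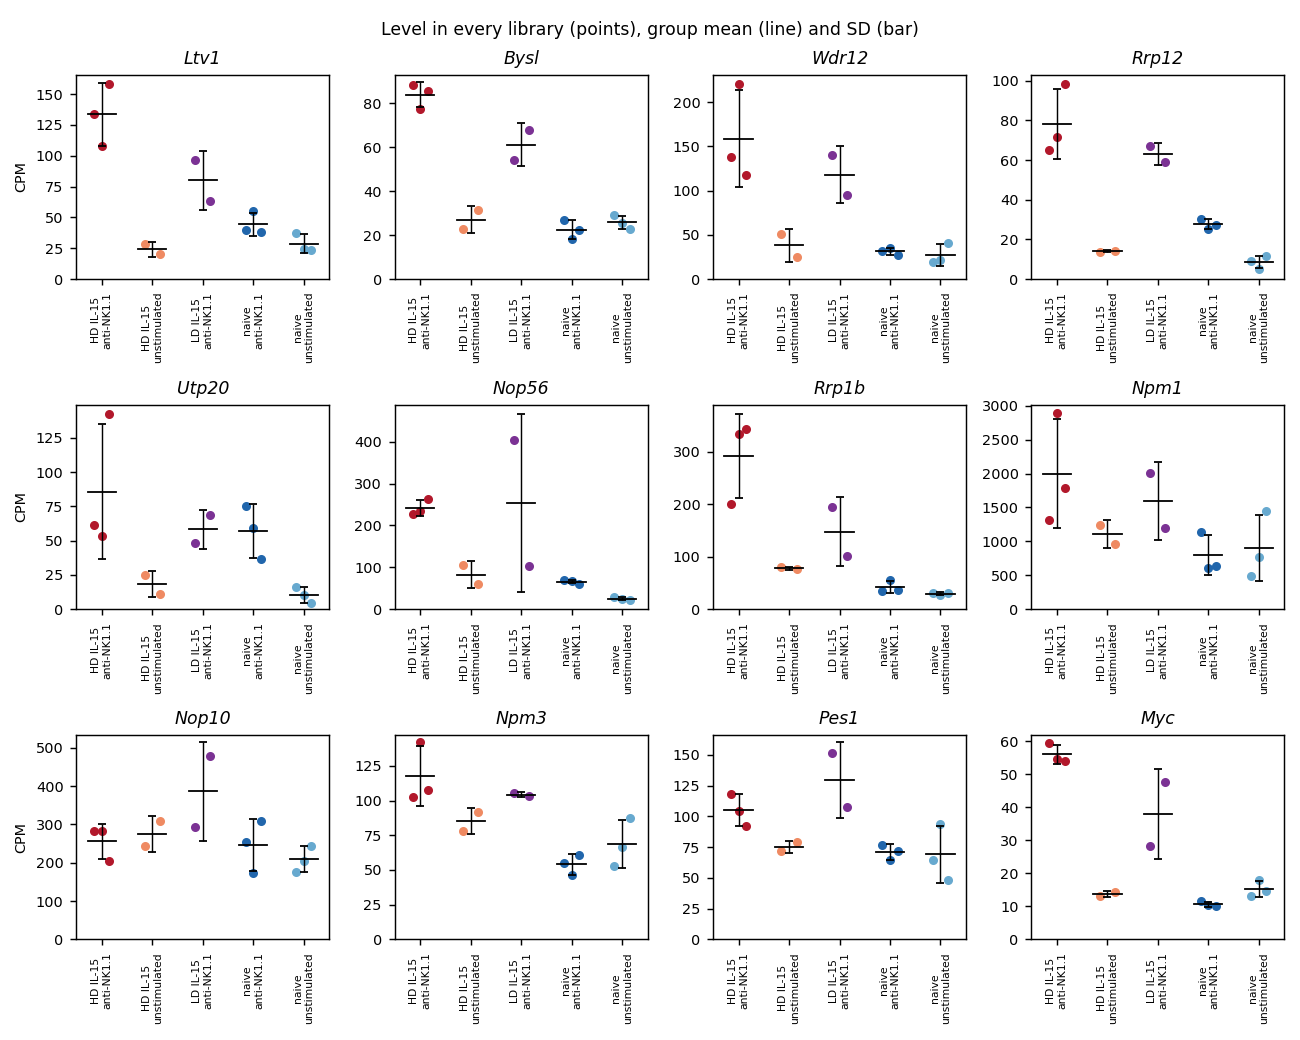
CPM in every library (points), with group means (lines) and SD (bars), for 11 of the genes and *Myc*, 1 panel each, with groups on the x axis. *Ltv1*, *Bysl* and *Wdr12* separate stimulated HD cells from all naive libraries, *Nop10* overlaps between stimulated and unstimulated cells in both HD and naive cells, and *Myc* is highest in stimulated HD cells.

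Of the 13 60S factors, 12 were called in HD cells and 5 in naive cells (15.9% and 14.5% of tested genes were called higher). *Pes1*, *Bop1* and *Wdr12* form 1 complex that is needed for 60S maturation, and they differed. *Wdr12* was at 137, 221 and 118 CPM in stimulated HD cells, against 51.4 and 24.9 CPM in unstimulated HD cells. In naive cells it was at 31.3, 35.03 and 27.1 CPM in stimulated naive cells, against 19.5, 21.01 and 40.97 CPM in unstimulated naive cells, and those groups overlapped. *Wdr12* rose by 2.10 ± 0.38 in HD cells (adjusted p = 0.000677), against 0.27 ± 0.34 in naive cells (adjusted p = 0.584). *Pes1* was at 118, 105 and 92.4 CPM in stimulated HD cells, against 71.7 and 78.8 CPM in unstimulated HD cells. The *Pes1* change was 0.48 ± 0.26 (adjusted p = 0.179; 95% interval -0.08 to 1.03), the sole 60S member not called. *Bop1* was called at 0.83 ± 0.30 (adjusted p = 0.048), and the call was lost in 4 of the 5 fits that left out 1 library. The other 60S factors with calls in naive cells were *Grwd1*, a chaperone of the ribosomal protein RPL3 (2.28 ± 0.29 in HD, 1.47 ± 0.26 in naive cells), *Nop16* (1.98 ± 0.24 and 1.24 ± 0.21), *Rrs1* (2.15 ± 0.27 and 1.25 ± 0.24), which helps bring in the 5S particle, *Nop2* (1.75 ± 0.25 and 1.21 ± 0.22), an RNA methyltransferase, and *Wdr74* (1.62 ± 0.28 and 0.98 ± 0.25). *Grwd1* was at 52.1, 55.3 and 43.7 CPM in stimulated HD cells, against 7.76 and 13.6 CPM unstimulated, and at 13.1, 21.9 and 19.3 CPM in stimulated naive cells, against 7.25, 5.94 and 5.87 CPM in unstimulated naive cells, with stimulated libraries above unstimulated ones in both. *Ebna1bp2*, an early 60S factor, rose by 2.41 ± 0.37 in HD cells, with 185, 235 and 367 CPM, against 56.6 and 39.2 CPM unstimulated. *Rrp1b*, a nucleolar protein of 60S assembly, rose by 1.87 ± 0.31 in HD cells (adjusted p = 0.000352), where it was at 200.3, 334 and 344 CPM in stimulated HD cells, against 79.8 and 76.1 CPM in unstimulated HD cells. *Noc3l* rose by 2.03 ± 0.67, *Ftsj3*, an RNA methyltransferase, by 1.62 ± 0.51, and *Noc2l* by 0.86 ± 0.28, and these 3 calls were lost without some libraries. *Noc2l* shares 20.9% of its exonic bases with *Samd11* on the opposite strand. *Noc3l* was at 34.4, 85.6 and 101 CPM in stimulated HD cells, against 21.9 and 12.2 CPM in unstimulated HD cells, and the unstimulated naive libraries alone ranged from 4.32 to 25.8 CPM.

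The nucleolar scaffolds and chaperones had the lowest share of calls in HD cells, with 3 of 6 called in HD cells and 0 in naive cells. Of all tested genes, 15.9% and 14.5% were called higher. At an unadjusted limma p under 0.05, 1 of 6 was higher in naive cells, where 19.9% of tested genes were. *Npm1*, the histone chaperone and structural protein nucleophosmin, was spread widely: it was at 1319, 2891 and 1791 CPM in stimulated HD cells, against 1248 and 956 CPM in unstimulated HD cells. It was at 1133, 614 and 639.6 CPM in stimulated naive cells, against 497, 764 and 1447 CPM in unstimulated naive cells. The naive groups overlapped, and the changes were 0.80 ± 0.44 in HD cells (adjusted p = 0.181) and -0.10 ± 0.39 in naive cells (adjusted p = 0.876). *Npm3*, a relative of *Npm1*, was at 103, 142 and 107 CPM in stimulated HD cells, against 78.4 and 91.6 CPM in unstimulated HD cells, with a change of 0.46 ± 0.24 (adjusted p = 0.158). Its naive change was -0.33 ± 0.21 (adjusted p = 0.264), the lowest of the 45, and an annotated processed pseudogene, *Npm3-ps1*, could share its reads. *Ncl*, the RNA-binding protein nucleolin, had 0.97 ± 0.36 in HD cells, just outside the threshold (adjusted p = 0.0528). *Gnl3*, a nucleolar GTPase, *Nolc1*, a chaperone of snoRNPs, and *Ddx21*, an RNA helicase, rose by 1.62 ± 0.34, 1.83 ± 0.37 and 1.36 ± 0.46 in HD cells. *Gnl3* was at 166, 256 and 398 CPM in stimulated HD cells, against 96.8 and 72.3 CPM in unstimulated HD cells. In naive cells *Gnl3* was at 55.6, 49.1 and 45.9 CPM in stimulated naive cells, against 35.8, 24.1 and 32.5 CPM in unstimulated naive cells. The *Gnl3* groups were apart in both HD and naive cells, and the naive change was 0.72 ± 0.30 (adjusted p = 0.0864). The *Ddx21* call was lost without stimulated HD replicate 3 or unstimulated HD replicate 2.

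The difference between the responses, HD minus naive, was called for 8 of the 45 genes, all larger in HD cells, where 7.22% of tested genes were called in that direction and 8.01% in the other. The median difference was 0.81, and 42 of 45 were above 0. The 8 were *Bysl* (1.85 ± 0.31, adjusted p = 0.00121), *Utp15* (1.50 ± 0.29, 0.00295), *Ltv1* (1.82 ± 0.39, 0.00582), *Rrp9* (1.65 ± 0.41, 0.014), *Ebna1bp2* (1.82 ± 0.49, 0.0225), *Wdr12* (1.82 ± 0.50, 0.0253), *Rrp1b* (1.40 ± 0.41, 0.034) and *Pno1* (1.12 ± 0.34, 0.0376). In the fits that left out 1 library the count was 4 to 9, and *Bysl*, *Ltv1* and *Utp15* stayed called in all 11. It was 5 without stimulated HD replicate 2 or unstimulated HD replicate 1, and 4 without unstimulated HD replicate 2 or stimulated naive replicate 5. *Utp20* had the lowest difference, -0.37 ± 0.70 (adjusted p = 0.773).

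Without stimulation, HD culture alone was set against naive cells. Of the 45 genes 12 were called higher in unstimulated HD cells and 0 lower, where 16.6% of tested genes were called higher and 17.3% lower, and 17 were higher at an unadjusted limma p under 0.05, where 21.7% of tested genes were. The median change was 0.55, with a range from -0.40 (*Nol6*) to 1.68 (*Nop56*), and HD libraries lay wholly above naive ones for 22 genes (28.4% of tested genes). *Nop56* was at 105 and 59.8 CPM in unstimulated HD cells, against 28.8, 25.03 and 21.03 CPM in unstimulated naive cells, a change of 1.68 ± 0.41 (adjusted p = 0.00611). *Gnl3* (1.46 ± 0.34), *Rrp1b* (1.40 ± 0.31), *Wdr75* (1.30 ± 0.32), *Noc4l* (1.28 ± 0.32) and *Nop58* (1.25 ± 0.25) also rose by over 1. The other 6 called were *Dkc1*, *Nop16*, *Nop2*, *Polr1a*, *Tsr1* and *Wdr43*. *Srr*, whose exons lie opposite part of *Tsr1*, was called higher here too (1.22 ± 0.42, limma adjusted p = 0.0373). *Ltv1* and *Utp15* had differences of -0.23 ± 0.29 (adjusted p = 0.581) and -0.31 ± 0.21 (adjusted p = 0.277). Only *Nop58* and *Rrp1b* kept their calls in every fit that left out 1 library. The count was 4 without unstimulated HD replicate 1 and 7 without replicate 2. With library pool as a factor 1 gene was called, and the *Nop56* change turned to -0.29 (adjusted p = 0.74).

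Among stimulated cells, HD culture and LD culture each showed higher levels than naive cells. In HD against naive cells, 36 of 45 were called higher and none lower, where 21.1% of tested genes were called higher and 22.4% lower, with a median of 1.46 and a largest change of 2.80 ± 0.27 for *Rrp1b*. HD libraries lay wholly above naive ones for 40 genes (27.7% of tested genes), and 10 genes were called with library pool as a factor. That term turned the *Nop56* change of 1.87 ± 0.37 to -0.10 (adjusted p = 0.913). The 36 calls became 32 to 36 with 1 library left out, and those of *Ddx21*, *Ftsj3*, *Nob1*, *Npm1*, *Polr1a* and *Utp18* did not hold in all such fits. In LD against naive cells, 28 of 45 were called higher and none lower, where 6.57% and 7% of tested genes were, with a median of 1.003 and a largest change of 2.03 ± 0.67 for *Noc3l*, which was not called (adjusted p = 0.0577). LD libraries lay wholly above naive ones for 39 genes (21.7% of tested genes). The 2 comparisons share their naive libraries. The called genes numbered 25 in both, 11 in HD alone, and 3 in LD alone (*Fbl*, *Noc2l* and *Pes1*). The LD call count fell to 7 without LD replicate 1, 12 without LD replicate 3, 14 without naive replicate 5 and 16 without naive replicate 1, and 3 calls (*Bysl*, *Dkc1* and *Rrp1b*) held in every one. With library pool as a factor 7 genes were called. The fit without LD replicate 1 compares LD and naive cells within pool 2, with 1 LD library that is assumed to vary like the other groups. The 2 LD libraries were of different pools and differed for some genes: *Nop56* was at 403.7 CPM in replicate 1, against 103.1 CPM in replicate 3.

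**Figure D4:**
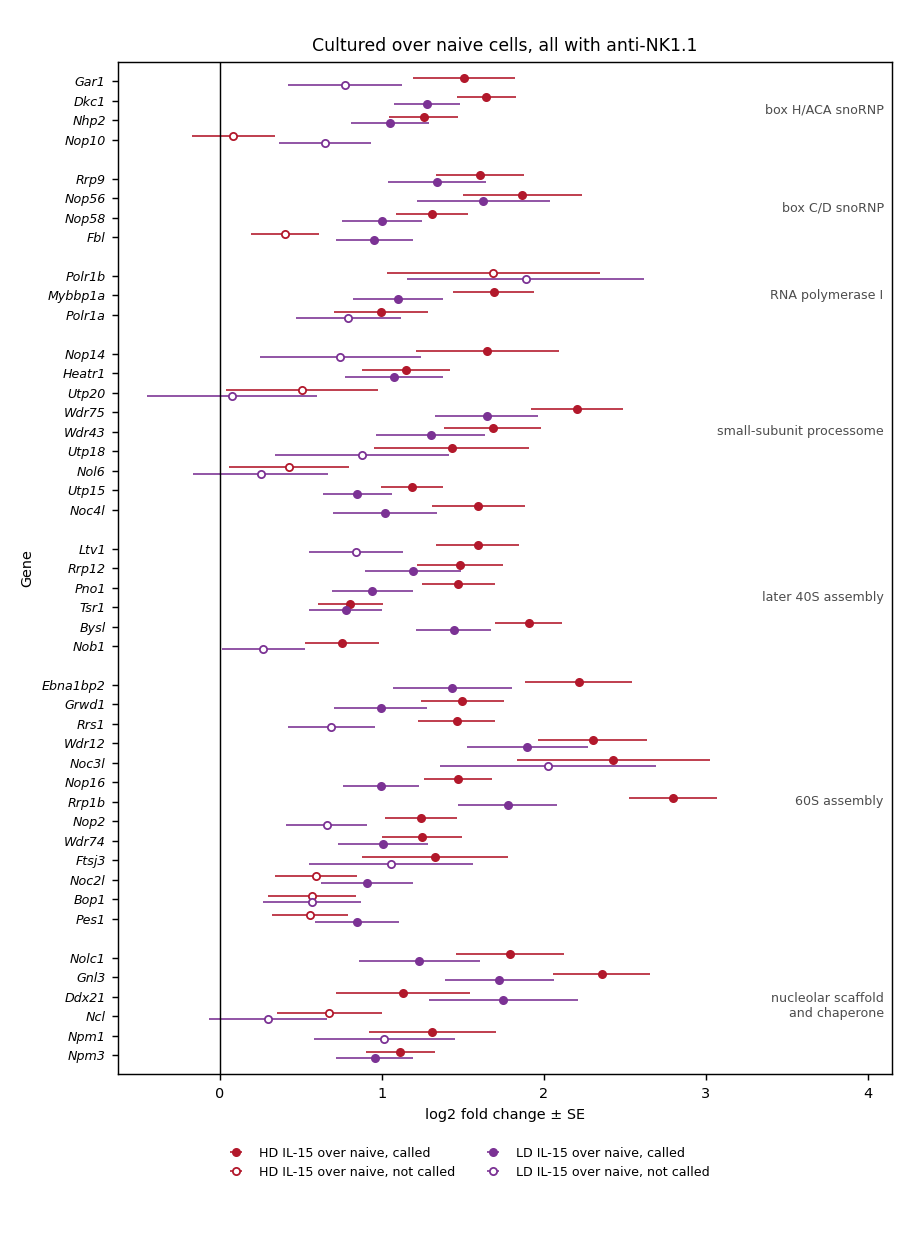
Log2 fold change of stimulated HD cells and of stimulated LD cells over stimulated naive cells, by gene and role, with bars of 1 SE and filled points for called genes. All points lie to the right of 0, and *Rrp1b* has the largest HD change.

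HD and LD cells with anti-NK1.1 were compared directly. None of the 45 genes was called in limma at an adjusted p under 0.05, in either direction, where 3.27% of tested genes were called higher and 5.33% lower. At an unadjusted p under 0.05, 4 of 45 were higher and 1 was lower in HD cells, where 9.81% and 12.7% of tested genes were, and the median change was 0.38. Within pool 1, that is without LD replicate 3, none was called, and 2 were called higher and 1 lower without LD replicate 1, and 1 higher without HD replicate 1 or 2. In a fit without either LD replicate, the LD group is 1 library that is assumed to vary like the other groups. *Rrp1b* came nearest, with 200.3, 334 and 344 CPM in HD cells, against 194 and 101 CPM in LD cells, a change of 1.02 ± 0.31 (adjusted p = 0.0539; 95% interval 0.37 to 1.68). HD libraries lay wholly above LD libraries for 14 genes and wholly below for 2, *Fbl* and *Nop10*, where 20.8% and 20.9% of tested genes did. *Fbl* was at 474, 449 and 326 CPM in HD cells, against 558 and 649 CPM in LD cells, a change of -0.55 ± 0.24 (adjusted p = 0.18), and *Nop10* had -0.56 ± 0.28 (adjusted p = 0.261). *Ddx21* had the lowest change, -0.62 ± 0.46 (adjusted p = 0.471), with 447, 422 and 952 CPM in HD cells, against 1180 and 637 CPM in LD cells.

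*Myc* was at 59.4, 54.8 and 53.9 CPM in stimulated HD cells, against 13.2 and 14.4 CPM in unstimulated HD cells, 28.4 and 47.7 CPM in stimulated LD cells, 11.5, 10.4 and 10.2 CPM in stimulated naive cells and 13.02, 17.9 and 14.7 CPM in unstimulated naive cells. The change was 2.02 ± 0.25 in HD cells (adjusted p = 3.46e-05) and -0.49 ± 0.22 in naive cells (adjusted p = 0.112), and the difference was 2.51 ± 0.33 (adjusted p = 0.000209). The 3 stimulated naive libraries had less *Myc* than the 3 unstimulated ones. Whether *Myc* has a part in the changes of the 45 genes was not tested. In stimulated LD cells *Myc* exceeded stimulated naive cells by 1.78 ± 0.25 (adjusted p = 0.000425).

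Of 133 other ribosome biogenesis genes, 131 were measured. In HD cells 77 were called higher and 2 lower with anti-NK1.1, where 15.9% and 17.2% of tested genes were, with a median of 0.89. In naive cells 41 were called higher and 3 lower, where 14.5% and 14.7% of tested genes were, with a median of 0.52. The largest called increases in HD cells were *Dimt1*, an 18S RNA methyltransferase (2.68), and *Mdn1*, an ATPase that remodels 60S particles (2.46), and the called decreases were *Exosc8*, an exosome subunit (-1.25), and *Pih1d1*, of the R2TP chaperone complex (-0.93). In naive cells *Nol11* (2.51) and *Rpf2* (1.94) had the largest called increases, and *Nol7* (-1.03) and *Zfp622* (-0.90) the largest called decreases. Of 79 cytosolic ribosomal protein genes, 1 was called higher in HD cells and none in naive cells by limma, with medians of -0.17 and 0.03. None was called lower in either. At an unadjusted limma p under 0.05, 3 and 0 were higher (2435 and 2294 of 11543 tested genes) and 1 and 0 lower (2544 and 2342). Stimulated HD libraries lay wholly above unstimulated ones for 7 and wholly below for 20 of the 79 (3306 and 3557 of 11543 tested genes).

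**Figure D5:**
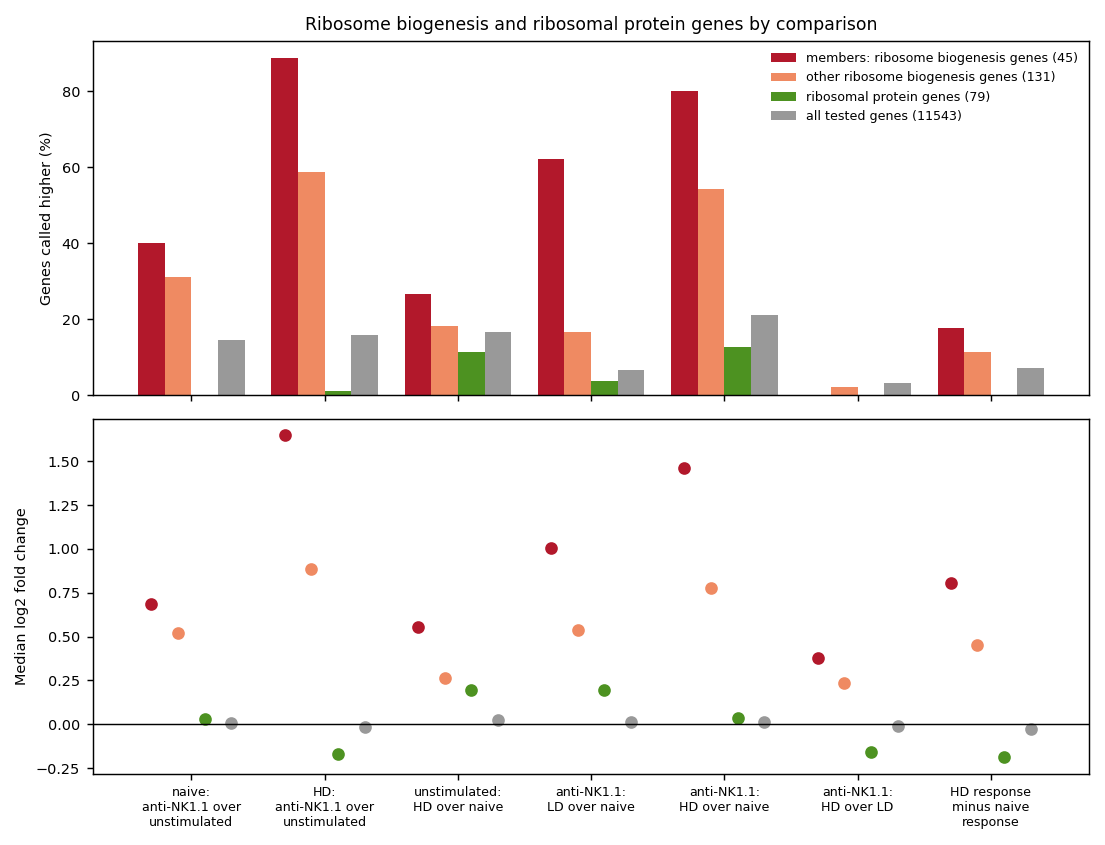
Percent of genes called higher (bars, above) and median log2 fold change (points, below) for the 45 genes, the other ribosome biogenesis genes, the cytosolic ribosomal protein genes and all tested genes in each comparison. The 45 genes reach 88.9% called higher with anti-NK1.1 in HD cells, where the ribosomal protein genes have a median of -0.17.

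Of the 45 genes 7 (15.6%) hold snoRNA genes within their bounds by the GENCODE M21 annotation, against 221 of 11543 tested genes (1.91%). They are *Nop56*, *Nop58*, *Wdr43*, *Ncl*, *Gnl3*, *Tsr1* and *Dkc1*, with 21 snoRNA genes in all. In unstimulated HD cells over unstimulated naive cells, 6 of these 7 were called higher, against 6 of the 38 other members and 16.6% of tested genes. HD and naive cells lie in different library pools, and with pool as a factor 1 of the 45 genes was called in that comparison. With anti-NK1.1 in HD cells the counts were 6 of 7 and 34 of 38 (15.9% of tested genes). In naive cells they were 4 of 7 and 14 of 38 (14.5% of tested genes). The difference of the responses was called higher for 0 of the 7 and 8 of the 38 (7.22% of tested genes), with medians of 0.34 and 0.83. The difference between the 2 classes was not tested.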

How the data were processed

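The deposited values were, as read from the values themselves, log2 of quantile-normalized counts plus 1. The submitters' processing notes name mm10 as the build, and the aligner, counter and gene filter are not given in the sources used here. Quantile normalization gives every library the same distribution, so a shift of total RNA per cell is not visible. CPM was computed from back-transformed values. Genes that reached 10 after back-transformation in 2 or more libraries (11543, after 446 were left out) were fitted with limma 3.58.1 in R 4.3.3, in 1 model of 13 libraries and 5 groups, with a variance trend, empirical Bayes moderation (8 residual and 6.3 prior degrees of freedom) and Benjamini-Hochberg adjustment. The fit was tested on simulated data. Python 3.11.15 with matplotlib 3.10.9 and pandas 2.3.3 was used for summaries and plots. Alternatives were other filters, an offset of 8, median-ratio scaling, other variance settings, a replicate block, library pool as a factor, only the compared groups and leaving out each library. Named were all members by role, those with the largest and smallest change or against their role group in every library, the other ribosome biogenesis genes with the 2 largest calls in each direction, and *Myc*. The members and lists were chosen with earlier results of these data known.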

Additional observations from a re-analysis of the deposited data

Results flagged for a closer look

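For 8 of the 45 genes the change with anti-NK1.1 was called different between HD and naive cells by limma's interaction contrast. The differences, HD minus naive on the log2 scale, were 1.85 for *Bysl* (adjusted p = 0.00121), 1.82 for *Wdr12* (0.0253), 1.82 for *Ebna1bp2* (0.0225), 1.82 for *Ltv1* (0.00582), 1.65 for *Rrp9* (0.014), 1.50 for *Utp15* (0.00295), 1.40 for *Rrp1b* (0.034) and 1.12 for *Pno1* (0.0376). Of these, *Pno1* was called in both responses, and the other 7 in HD cells alone. The HD and naive responses were measured in different library pools.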

How the results depend on the processing

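The counts of genes called higher moved by at most 1.5 times under every alternative for the naive response (18) and the HD response (40). Library pool as a factor could alter only the spread there and not the changes, because each response lies within 1 pool. Median-ratio scaling of the already quantile-normalized values had factors of 0.987 to 1.057. Neither setting was thus a strong check of these counts. For unstimulated HD over naive cells (12) the count was 7 with only the compared groups, 3 with a replicate block and 1 with library pool as a factor. For stimulated HD over naive cells (36) it was 10 with library pool as a factor. For stimulated LD over naive cells (28) it was 15, 2 and 7 under those 3 settings. For HD over LD cells (0) it was 1 with an offset of 8. For the difference of responses (8) it was 4 without a variance trend and 2 with the replicate block. Leaving out 1 library gave 4 to 12, 7 to 25, 0 to 2 higher and 0 to 1 lower, and 4 to 9 calls for unstimulated HD over naive, stimulated LD over naive, HD over LD and the difference of responses. With library pool as a factor the *Nop56* change reversed to -0.29 (unstimulated HD over naive, adjusted p = 0.74) and -0.10 (stimulated HD over naive, adjusted p = 0.913), and the cause was not tested. Whether replicate numbers pair the libraries could not be decided. Deviations from the group means of same-numbered libraries correlated between -0.143 and 0.162. In a group of 2 libraries the deviations mirror each other, so correlations with unstimulated HD or LD libraries cannot tell. Between the naive groups, of 3 libraries each, same-numbered libraries gave -0.011 and -0.045. Differently numbered naive libraries gave -0.077 to 0.08. The same-numbered naive libraries were thus no more alike, but such pairs are too few to decide. Over single genes and settings, 4238 results kept their direction and side of the threshold, 360 lost a call, 52 gained one, 2 reversed (*Nop56*, above) and 118 changed sign without a call under either setting. Depth limits *Polr1b* most, and groups of 2 and 3 libraries limit every spread.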
